A study of Mus musculus with 6 samples.

Results

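The genes described here are 10 genes of lipid handling that macrophages are known to use, Apoe, Pltp, Lpl, Fabp4, Fabp5, Plin2, Abca1, Abcg1, Pparg and Gpnmb, in leukocytes of the inflamed mouse joint. They were chosen by symbol, with earlier results of these data known, and all 10 were found among the 20394 genes of the table. The cells were CD45+ leukocytes sorted from digested synovium and profiled by droplet single-cell RNA sequencing, which counts transcripts as unique molecular identifiers (UMIs). Adult male C57BL/6 mice had antigen-induced arthritis (AIA): all were immunised with 10 µg of methylated bovine serum albumin in complete Freund's adjuvant and challenged with 100 µg of it in the knee on day 21. From that day 2 samples came from mice given the vehicle phosphate-buffered saline (PBS) and 4 from mice given 300 µg of PEPITEM, a peptide drug under study for arthritis, and joints were taken 3 days after the challenge. The deposited matrix pools 6 libraries under barcode numbers from 1 to 6 that no source used here ties to a treatment. Vehicle and PEPITEM were therefore not compared, and no library is a replicate of a known group.

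Macrophages take up lipoproteins and dying cells, break their lipids down in the lysosome, and either store the cholesterol and fatty acids in droplets or pass them on to lipoproteins outside the cell. Lipase and fatty acid binding proteins bring fatty acids in and carry them, perilipins coat the droplets, and ATP-binding cassette transporters hand cholesterol to apolipoproteins. Nuclear receptors that sense lipids switch many of these genes on, and cells with this programme are known from atherosclerotic plaque, obese fat and scarred tissue.

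Cells were sorted into classes by marker genes, none of which is one of the 10 genes, and a class is named only for the markers that gated it. Of 32953 cells, 27431 fell in a class, and 16 classes held at least 50 cells. The macrophage gate took 3497 cells, from 257 to 828 per library, or 4.42% to 22.8% of a library's cells. This share was 20.7% to 22.8% in libraries 1, 3 and 4 and 4.42% to 6.61% in libraries 2, 5 and 6. The macrophage-gated cells were split into 1519 resident cells (Lyve1, Cd163, Timd4, Folr2) and 923 inflammatory cells (Arg1, Nos2, Cxcl9, Thbs1, Ccl7). A further 327 cells formed the Fxyd2 and Aqp1 class (Fxyd2, Aqp1, Vsig4, Sparc, Cx3cr1), and 728 were other macrophages. Of these 327 cells, 257 showed exactly 2 of the 5 markers, which need not be Fxyd2 or Aqp1. Of the 923 inflammatory cells, 572 showed exactly 2 of their 5 markers, and of the 1519 resident cells 448 showed exactly 2 of their 4. Where markers of several subclasses were met, the resident name was given first, then the Fxyd2 and Aqp1 name. So 1339 resident cells also met the Fxyd2 and Aqp1 gate and 193 the inflammatory gate. The inflammatory gate was also met by 101 cells of the Fxyd2 and Aqp1 class. Lyve1, the hyaluronan receptor of resident macrophages, stood at 1517 UMIs per 1000000 UMIs (CPM) in the resident class and 0.34 CPM in the inflammatory class. Lyve1 is itself a gating marker, so the gate sets part of this difference. Library depth ran from 47273569 to 123367661 UMIs. Library 2 held only 35 resident cells, and 276 cells carried a barcode sequence found in more than 1 library.

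The promoters of 6 of the 10 genes could be matched in the RefSeq table of build GRCm38.p6. Those of Pltp, Apoe and Plin2 are shown because Pltp was higher in resident and Apoe and Plin2 in inflammatory macrophages. Each is the 250 bases before a start site on the gene's own strand, at chr2:164857709-164857958 (minus strand) for Pltp, chr7:19699189-19699438 (minus strand) for Apoe and chr4:86670060-86670309 (minus strand) for Plin2. Apoe also has windows at chr7:19698622-19698871 and chr7:19698399-19698648, which are not shown. The latter holds GAGGAA as well. Capitals mark GAGGAA, the core that the macrophage factor PU.1 is known to bind, in Pltp and Apoe, and the nuclear receptor half-site AGGTCA, read on the opposite strand, in Plin2.
Pltp: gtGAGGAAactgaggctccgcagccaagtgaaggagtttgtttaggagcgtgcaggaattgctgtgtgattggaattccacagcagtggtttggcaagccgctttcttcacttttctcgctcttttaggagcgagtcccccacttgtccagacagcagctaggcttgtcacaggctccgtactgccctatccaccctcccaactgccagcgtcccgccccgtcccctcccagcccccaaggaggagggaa
Apoe: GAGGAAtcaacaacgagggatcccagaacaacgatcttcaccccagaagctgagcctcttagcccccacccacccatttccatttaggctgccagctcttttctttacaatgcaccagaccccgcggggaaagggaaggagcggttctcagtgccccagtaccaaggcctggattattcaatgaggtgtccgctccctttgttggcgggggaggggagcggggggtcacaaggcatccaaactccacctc
Plin2: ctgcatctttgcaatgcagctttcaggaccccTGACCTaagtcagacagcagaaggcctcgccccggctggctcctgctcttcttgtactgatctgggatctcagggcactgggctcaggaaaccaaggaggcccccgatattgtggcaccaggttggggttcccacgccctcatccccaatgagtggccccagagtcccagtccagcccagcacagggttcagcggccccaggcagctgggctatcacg
The motif GAGGAA was found, on either strand, in windows of Apoe, Pltp and Pparg and in 23.3% of all 32851 promoter windows of this length. AGGTCA was found in Plin2 and Pparg and in 14.0% of all windows. The full receptor sites DR1 and DR4, direct repeats of the half-site with 1 and 4 bases between, were in none of the 10 windows of these genes and in 0.0335% and 0.0152% of all windows. The E-box CACGTG was in the Abca1 window and in 6.02% of all windows. A match is a run of letters and no evidence of binding.

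The 10 genes were unevenly concentrated in macrophages. Macrophage classes held 88.1% of the Pltp UMIs and 84.1% of the Apoe UMIs found in all classes, beside 15.4% of all UMIs. Of the 551093 Apoe UMIs in all cells, only 265266 lay in a class, and 41.5% lay in the 1986 cells that passed both the macrophage and the neutrophil gate. For the rest of the 10 genes these cells held 14.9% (Fabp4) to 31.2% (Gpnmb) of the UMIs in all cells, beside 11.05% of all UMIs. The shares in classes leave these cells out. The macrophage share of the UMIs in classes was 73.2% for Lpl, 72.9% for Gpnmb and 63.8% for Abca1. It was lower for Pparg (42.1%), Fabp4 (41.7%), Plin2 (36.8%), Abcg1 (34.5%) and Fabp5 (32.7%), whose remaining UMIs lay mainly in monocytes, dendritic cells, neutrophils and B cells. The pooled level was highest in a macrophage class for 6 of the 10 genes, Apoe, Pltp, Lpl, Fabp5, Plin2 and Abca1. For each of these the library range of that class overlapped that of the next class. The share of all genes highest in a macrophage class was not computed, so this count is not read as a result about the 10 genes. For Fabp4, Abcg1 and Pparg the pooled level was highest in nonclassical monocytes, so the name macrophage gene describes these genes only in part. Gpnmb was highest in the small fibroblast class (116 CPM). Its counting interval and library range there overlapped those of the other macrophages (97.6 CPM).

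**Figure D1:**
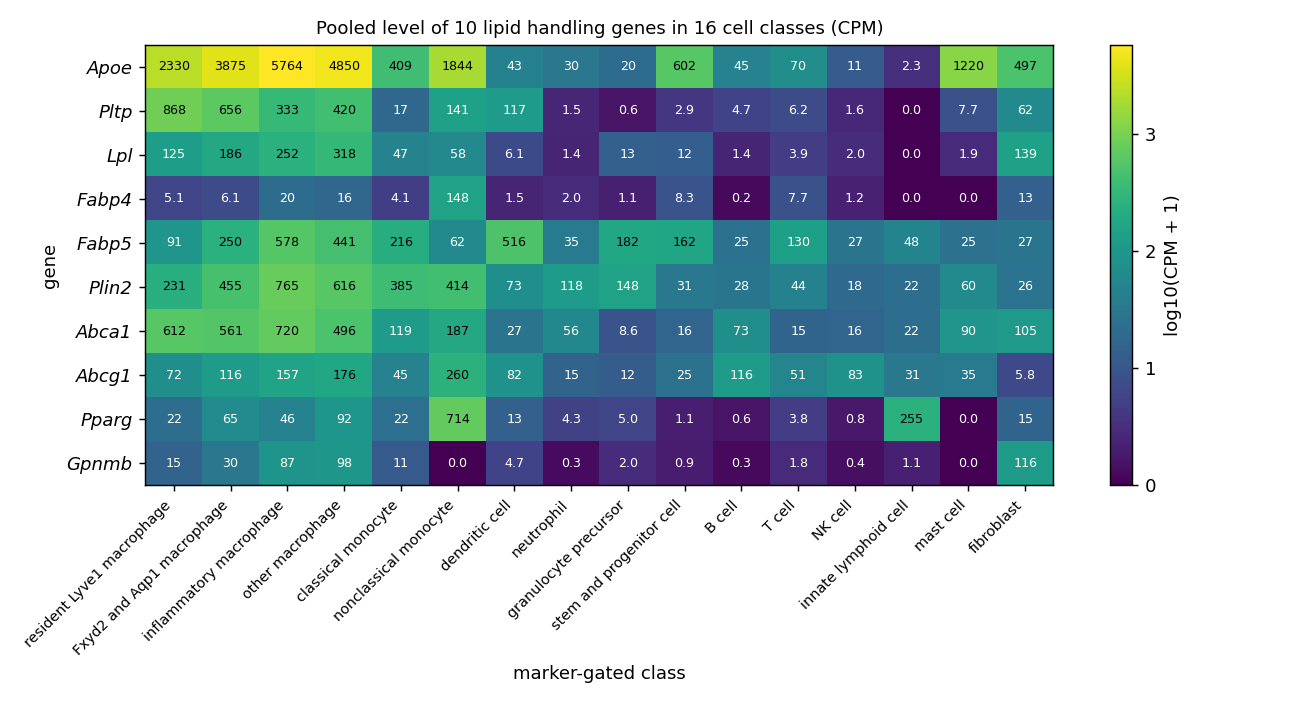
Pooled level of each gene (rows) in each of the 16 marker-gated classes (columns), printed as CPM and coloured by log10(CPM + 1). Apoe reached 5764 CPM in inflammatory macrophages, while Pparg stood at 714 CPM in nonclassical monocytes and 21.7 CPM in resident macrophages.

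**Figure D2:**
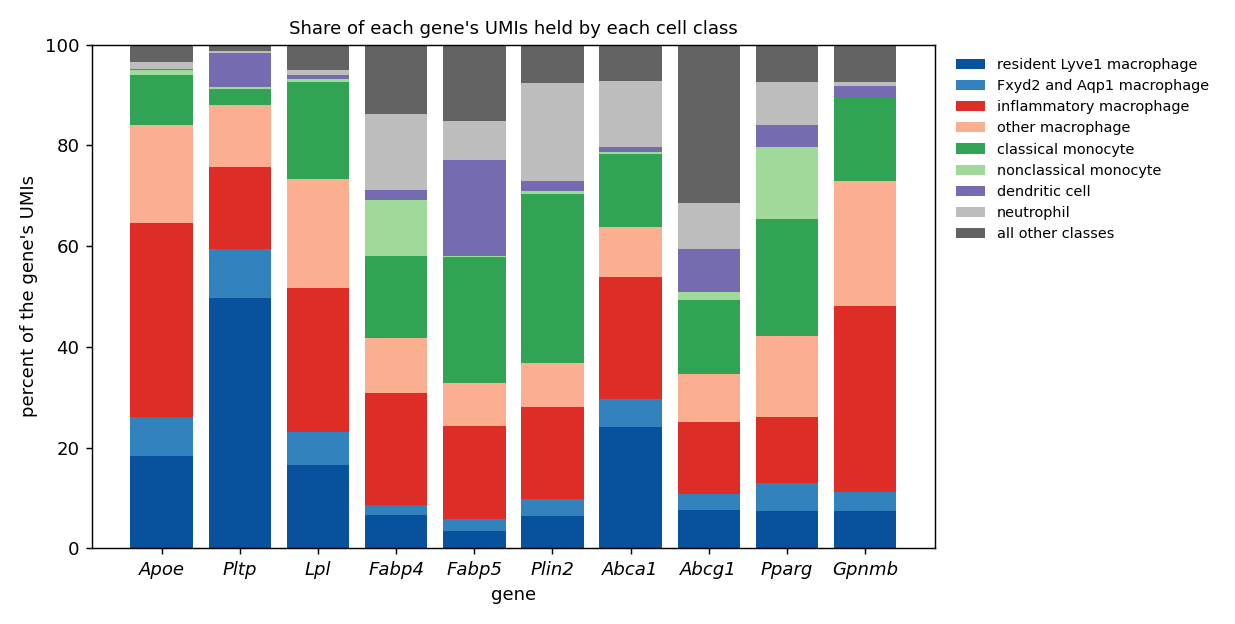
Share of each gene's UMIs, in percent of its UMIs in all classed cells (vertical axis), held by each class (colours) for the 10 genes (horizontal axis). Resident macrophages held 49.7% of the Pltp UMIs and 3.38% of the Fabp5 UMIs.

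Apoe encodes apolipoprotein E, which macrophages secrete to carry cholesterol away. Its pooled level was 5764 CPM in inflammatory, 4849.9 CPM in other, 3875 CPM in Fxyd2 and Aqp1 and 2329.6 CPM in resident macrophages. Over the 6 libraries it ran from 3397 to 7977 CPM (median 5957) in the inflammatory class and from 1689.6 to 3001 CPM (median 1868) in the resident class. The library ranges of these 2 classes did not overlap, whereas those of neighbours in the order did. Classical monocytes stood at 408.6 CPM (library values 222 to 741), close to stem and progenitor cells at 602 CPM.

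Apoe was also detected in a smaller share of resident than of inflammatory cells. At least 1 Apoe UMI was found in 94.8% of inflammatory cells (exact 95% interval 93.2% to 96.1%) and in 61.1% of resident cells (58.6% to 63.6%). With every cell thinned to 3000 UMIs, the shares were 89.1% and 49.2%. The share in resident cells lay between 51.3% and 67.0% in every library, and T cells, which should lack the transcript, had a share of 2.84% (median depth 9347.5 UMIs per cell, beside 12308 in resident and 18152 in inflammatory cells). Where resident cells were positive, the median was 19 UMIs per cell. The matrix also holds entries stored as 0. For Apoe these were found in 6.06% of resident and 1.63% of inflammatory cells, while 32.9% and 3.58% had no entry at all. In T cells 17.5% of cells held such an entry, which their share of 2.84% does not count. The authors corrected the counts for free RNA, but no source used here states that this correction made these entries 0. Whether it did, and its part in the Apoe shares, was not tested.

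Outside the macrophages Apoe was high in mast cells. Their pooled level was 1219.7 CPM (1018, 1421 and 1001 CPM in the 3 libraries with at least 10 mast cells), and 83.6% of 116 cells were positive (75.6% to 89.8%). In the same cells C1qa, a complement gene of macrophages, stood at 7.68 CPM and Mertk, their efferocytosis receptor, at 0, where 3 UMIs would give 5.76 CPM. Nonclassical monocytes held 1844 CPM of Apoe, with C1qa at 2.43 CPM and the macrophage marker Adgre1 at 239 CPM. Cells that passed the macrophage gate as well were left out of both classes. C1qa, Mertk and Adgre1 are markers of that gate, so the gate sets part of their values here.

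Pltp, the phospholipid transfer protein that remodels high-density lipoprotein, had the opposite order. It stood at 868 CPM in resident, 656 CPM in Fxyd2 and Aqp1, 420.3 CPM in other and 333 CPM in inflammatory macrophages. Library values ran from 659 to 1104 CPM (median 846) in the resident class and from 238 to 451 CPM (median 317) in the inflammatory class, with no overlap. The next class, nonclassical monocytes, stood at 141 CPM and its library range (95.9 to 193 CPM) lay below that of every macrophage class. Pltp was detected in 96.8% of resident, 78.1% of inflammatory and 12.1% of classical monocyte cells, and in 1.04% of neutrophils. Among dendritic cells the Siglech subset, which carries a marker of plasmacytoid cells, held 190 CPM and 66.2% positive cells, against 23.1 CPM in the Clec9a or Xcr1 subset.

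**Figure D3:**
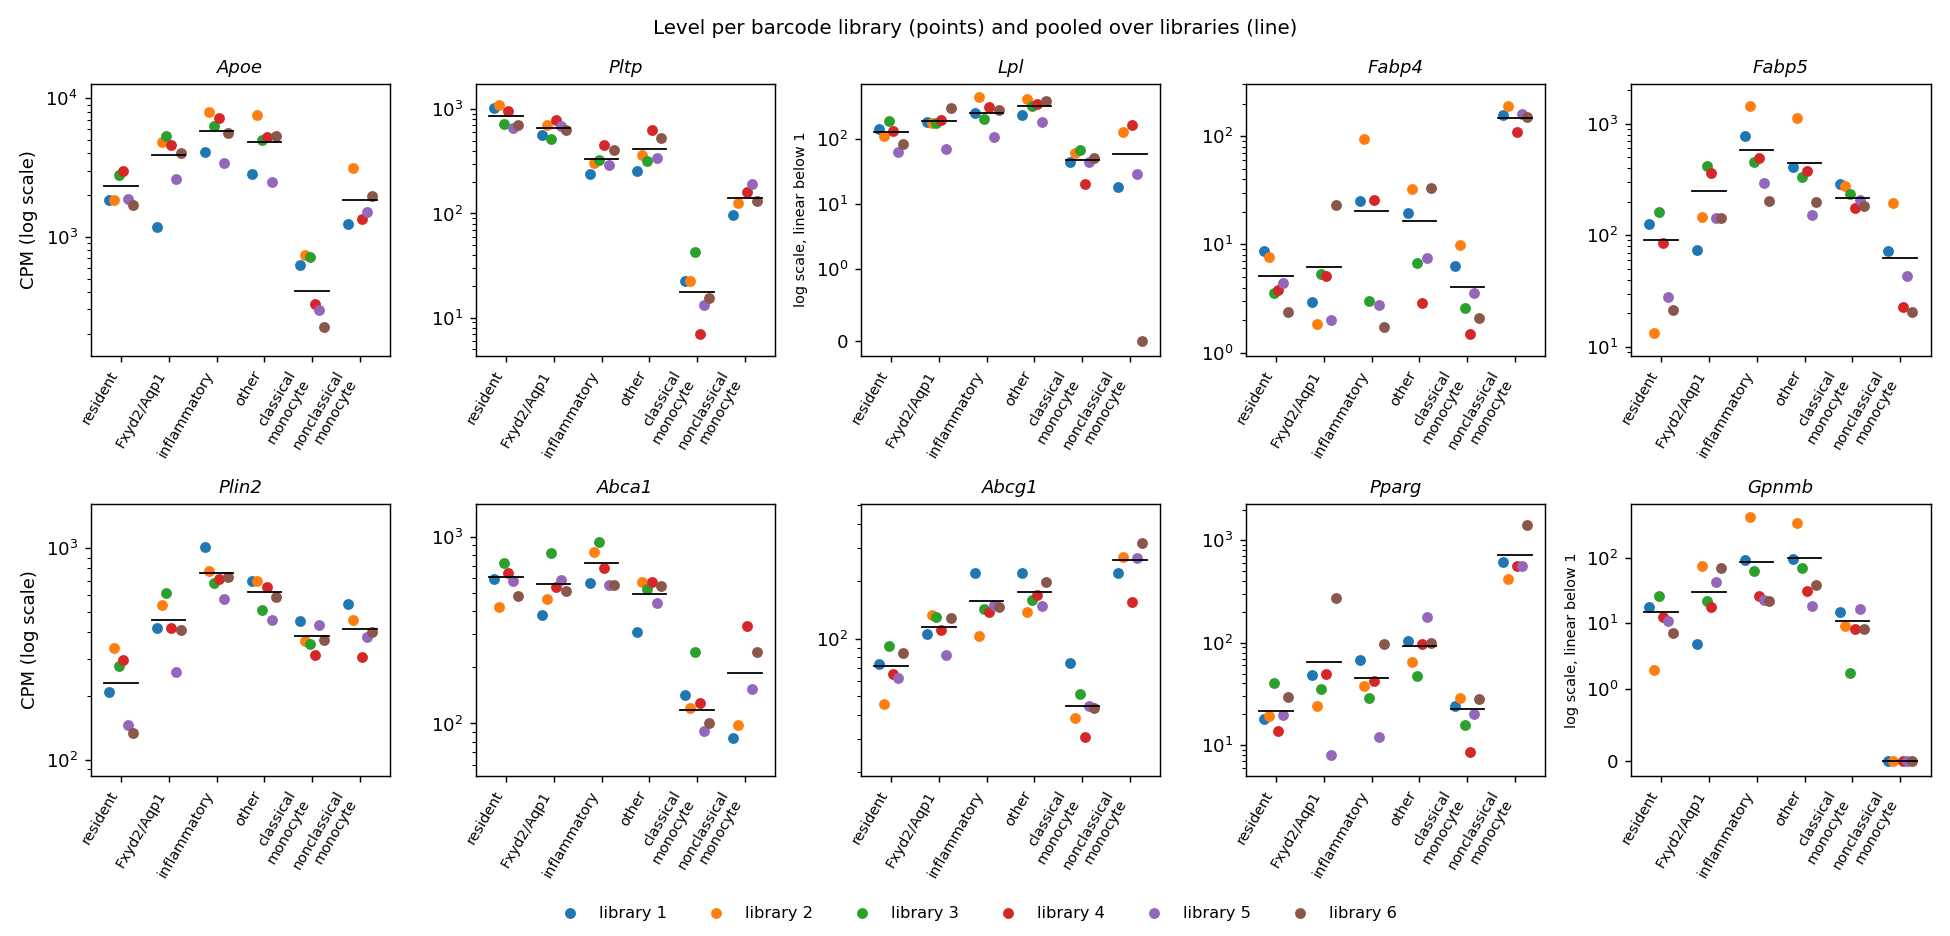
Level in CPM (vertical axes, log scale, with a linear stretch below 1 for Lpl and Gpnmb) of each gene in the 4 macrophage and 2 monocyte classes (horizontal axes), with a coloured point per barcode library and a line at the pooled value. Library values of Pltp in classical monocytes (6.88 to 42.6 CPM) lie below those of every macrophage class, and Gpnmb in library 2 stands at 419 CPM in inflammatory macrophages.

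Lpl encodes lipoprotein lipase, which frees fatty acids from triglyceride-rich particles. Its level was 318 CPM in other, 252 CPM in inflammatory, 186 CPM in Fxyd2 and Aqp1 and 125 CPM in resident macrophages, and 139 CPM in fibroblasts. The resident value was below the inflammatory value in each of the 6 libraries, but the ranges of 63.2 to 184 CPM and 108 to 439 CPM overlapped. Positive cells made up 47.6% of inflammatory and 31.1% of resident macrophages, 28.3% of classical monocytes and 0.59% of neutrophils. Library 5 had the lowest Lpl of the 6 libraries in all macrophages together (90.8 CPM, beside 194 to 353 CPM in the others).

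Fabp4 and Fabp5 are fatty acid binding proteins that ferry fatty acids through the cytoplasm, and their patterns differed. Fabp4 was sparse in macrophages, with 20.2 CPM and 5.53% positive cells in the inflammatory class and 5.11 CPM and 2.50% in the resident class. Library values overlapped, from 1.72 to 93.9 CPM in the inflammatory and from 2.36 to 8.72 CPM in the resident class. Nonclassical monocytes, patrolling cells of the vessel wall here marked by Ace, Cd300e, Treml4 and Spn, held 148 CPM with 45.5% of 134 cells positive (36.9% to 54.3%). Their library values of 110 to 191 CPM lay above those of every other class. Of the 3 adipocyte markers measured, Adipoq and Cfd were at 0 in these 134 cells, which held 1232417 UMIs together, and the other is not reported here.

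Fabp5 was higher and more widely spread. It stood at 578 CPM in inflammatory, 441 CPM in other, 249.9 CPM in Fxyd2 and Aqp1 and 90.5 CPM in resident macrophages, beside 216 CPM in classical monocytes. The resident libraries (13.3 to 163 CPM, median 57.1) lay below the inflammatory libraries (204 to 1429 CPM, median 469.5) without overlap. The share of positive cells was 65.3% in inflammatory cells, 68.5% in classical monocytes and 13.7% in resident cells, against 9.46% in B cells. The 1239 dendritic cells together held 516 CPM, and 91 of them carried Ccr7 and Fscn1, markers of migrating dendritic cells. In these 91 cells the level was 4535 CPM, 95.6% of cells were positive, and the 4 libraries with at least 10 such cells held 3799 to 7445 CPM. Without library 2, whose inflammatory cells held 1429 CPM, dendritic cells became the highest of the 16 classes for Fabp5, as they did by the median of the library values.

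Plin2 coats lipid droplets and is degraded when it has none to cover. It was detected in nearly all inflammatory macrophages (97.0%) and classical monocytes (93.9%), in 63.5% of resident macrophages and in 51.0% of neutrophils, while T cells had 19.3%. The level was 765 CPM in inflammatory, 616 CPM in other, 455 CPM in Fxyd2 and Aqp1 and 231 CPM in resident macrophages, with 414 and 385 CPM in nonclassical and classical monocytes. Resident libraries spanned 135 to 336 CPM (median 244) and inflammatory libraries 575 to 1011 CPM (median 721), with a gap between them. Classical monocytes, at 313 to 451 CPM in the libraries, lay below every inflammatory library and overlapped the resident range. Neutrophils, with 10689 cells the largest class, stood at 118 CPM and held 19.4% of the Plin2 UMIs in all classes.

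Abca1 and Abcg1 export cholesterol, the first to lipid-poor apolipoprotein and the second to mature high-density lipoprotein. Abca1 varied little over the macrophage classes, with 720.5 CPM in inflammatory, 612 CPM in resident, 561 CPM in Fxyd2 and Aqp1 and 496 CPM in other macrophages. Its library ranges overlapped in all 4 (419 to 727 CPM resident, 553 to 942 CPM inflammatory), and the resident value was the higher one in 2 of 6 libraries. At least 81.5% of cells were positive in each macrophage class, against 51.5% of classical monocytes and 9.62% of T cells. B cells held 73.3 CPM with 28.8% positive cells, and the other lymphocytes held 15.3 to 21.7 CPM.

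Abcg1 had another distribution. Nonclassical monocytes held 259.6 CPM, other macrophages 176 CPM, inflammatory macrophages 157 CPM and resident macrophages 72.5 CPM. The resident libraries (45.8 to 92.2 CPM) lay below the inflammatory libraries (103 to 220.1 CPM) by a small margin. Some lymphocytes also held the transcript: B cells stood at 116 CPM with 44.7% positive cells, NK cells at 83.4 CPM with 48.2% and T cells at 50.9 CPM with 34.5%, all above the 25.6% and 11.7 CPM of the deeper granulocyte precursors, while innate lymphoid cells stood at 30.8 CPM with 17.3%. After thinning the shares were 27.3% of B cells, 27.5% of NK cells, 32.8% of inflammatory and 15.1% of resident macrophages. B cells held 24.4% of the Abcg1 UMIs.

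Pparg, the nuclear receptor that drives fatty acid uptake genes, was highest outside the macrophages. Nonclassical monocytes held 714 CPM, with library values from 415 to 1426 CPM, and 81.3% of cells were positive (73.7% to 87.5%). Innate lymphoid cells held 255 CPM, with 52.7% of 110 cells positive (43.0% to 62.3%) and library values from 49.9 to 612 CPM, the highest of them in library 6 as in the monocytes. Macrophages stood lower, with 92.3 CPM in other, 65.0 CPM in Fxyd2 and Aqp1, 45.6 CPM in inflammatory and 21.7 CPM in resident cells. Neighbours in this order overlapped, but the resident libraries (13.8 to 40.4 CPM) lay below those of the other macrophages (46.8 to 179.5 CPM). The Fxyd2 and Aqp1 value rested on library 6, with 270.4 CPM in its 41 cells beside 8.02 to 50.01 CPM in the others. In B cells, NK cells and mast cells the share of positive cells was 0.82% or less.

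Gpnmb, a lysosomal membrane glycoprotein of lipid-laden macrophages, was found in a minority of cells. It was positive in 16.6% of inflammatory, 12.1% of other, 10.4% of Fxyd2 and Aqp1 and 7.37% of resident macrophages. The pooled levels were 86.7, 97.6, 30.1 and 14.8 CPM in that order. These values rested in large part on library 2, where inflammatory cells held 419 CPM and other macrophages 339.8 CPM, against 21.8 to 92.3 CPM and 18.1 to 97.2 CPM in the other libraries. Without library 2 the inflammatory level was 53.8 CPM. In 134 nonclassical monocytes no Gpnmb UMI was found, where a limit of 3 counts allows up to 2.43 CPM and up to 2.24% of cells with a UMI, though not a limit on cells expressing it. The 117 cells of the fibroblast class, which should not pass a CD45 sort, held 116 CPM with 53.8% positive cells.

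Inflammatory macrophages could be divided further by Cxcl9, a chemokine induced by interferon, and Arg1, an arginine-degrading enzyme. In 430 cells with Arg1 and without Cxcl9, Apoe stood at 6554 CPM, Plin2 at 874 CPM, Abca1 at 865 CPM and Gpnmb at 89.5 CPM. In 241 cells with Cxcl9 the values were 3892, 572, 578 and 31.2 CPM. Pltp (331 and 262 CPM) and Lpl (231 and 251 CPM) were nearer to each other. Library 2 had only 2 cells with Cxcl9, so its high Gpnmb entered mainly the first set. Libraries 1, 3 and 4 gave 109, 153 and 36 cells to the first set and 35, 60 and 80 to the second. Pooled levels therefore weigh the libraries differently in the 2 sets. The Apoe library ranges (4808 to 8585 CPM and 1899 to 5180 CPM) overlapped. Inflammatory cells in neither set were left out. Resident and inflammatory cells also differed in how many of the genes 1 cell showed. After thinning, the median was 3 of 10 genes in resident and 4 in inflammatory macrophages, and 25.4% and 64.8% of cells showed 4 or more. Among inflammatory cells the 69 with Gpnmb were positive for Fabp5 in 73.9%, beside 35.6% of those without it, a description in sparse counts that library 2 can shape.

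The first comparison set resident against inflammatory macrophages, to ask which lipid genes were higher in which of these marker-gated classes. A gene was counted when its pooled level differed at least 2-fold and the library ranges did not overlap, among genes with at least 10 CPM in either class. No test was applied, since the libraries are of unknown treatment. Of the 10 genes, 1 was higher in resident cells by this rule, Pltp (2.61-fold, higher in 6 of 6 libraries), beside 10.3% of all 8294 genes compared. In the other direction 4 were lower in resident cells, Apoe (2.47-fold), Fabp5 (6.39-fold), Abcg1 (2.17-fold) and Plin2 (3.31-fold), each lower in 6 of 6 libraries, beside 3.79% of all genes. Gpnmb (5.84-fold) and Lpl (2.01-fold) were also lower in resident cells in 6 of 6 libraries, but their library ranges overlapped. Fabp4 (3.96-fold) and Pparg (2.10-fold) had lower pooled levels in resident cells, but were higher there in 3 and 2 of 6 libraries. Abca1 differed 1.18-fold. Without library 2 the log2 ratio was -1.76 in place of -2.47 for Gpnmb and -1.21 in place of -1.80 for Fabp4. The median log2 ratio of resident over inflammatory was -1.21 for the 10 genes and 0.08 for all genes compared. The 10 genes were chosen with earlier results of these data known, so these values may not be independent of that choice.

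Some settings changed which genes passed. With the 1986 cells that also carried neutrophil markers added to their macrophage classes, only Fabp5 and Plin2 remained lower in resident cells. With clusters in place of gates, Apoe had a log2 ratio of -0.996 and Pparg passed instead, and without library 1 Abcg1 no longer passed. With 1 more marker asked for Abcg1 was lost and Gpnmb passed, and Gpnmb also passed by the mean of single cells and without library 3. Neutrophil markers summed to 760.4 CPM in inflammatory cells (library range 189 to 1465) and 465 CPM in resident cells (175 to 1079), with all 7 markers above 0 in both, and their part in the differences was not tested. Cycling markers summed to 59.3 and 50.8 CPM in these 2 classes.

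**Figure D4:**
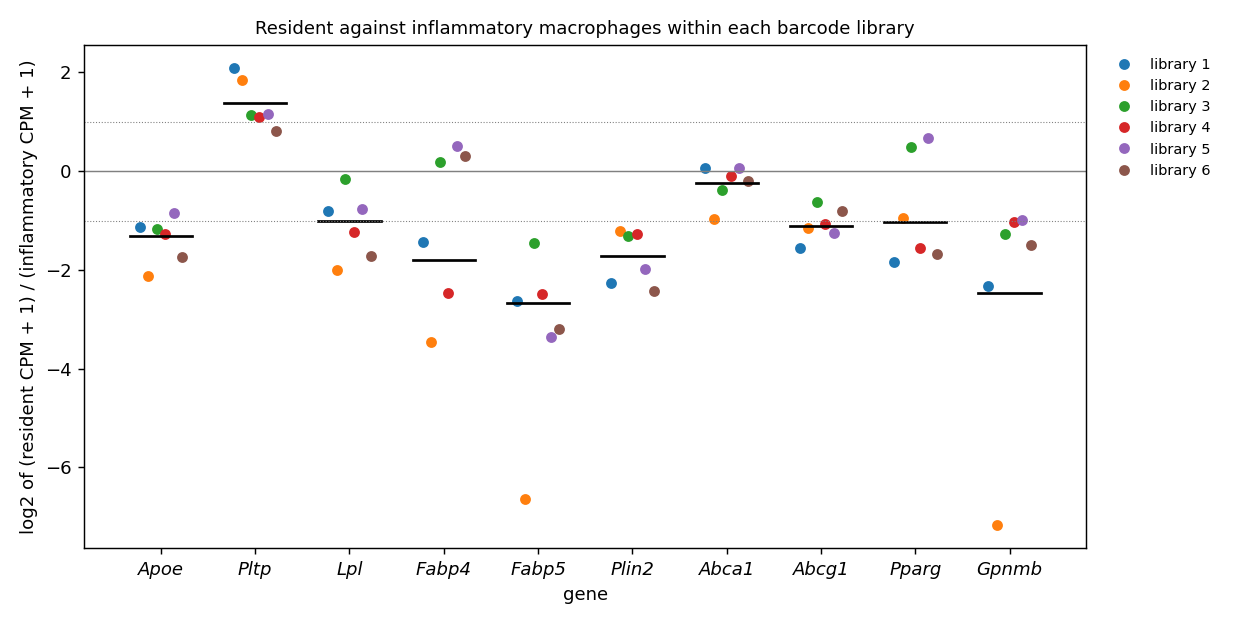
Resident over inflammatory level for each gene (horizontal axis), as log2 of (CPM + 1) ratios within each barcode library (coloured points) and for the pooled values (black line), with dotted lines at 2-fold. Pltp lies above 0 in all 6 libraries, Apoe, Lpl, Fabp5, Plin2, Abcg1 and Gpnmb lie below 0 in all 6, and library 2 stands apart for Fabp5 and Gpnmb.

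The second comparison set all macrophages against classical monocytes, the cells gated on Ly6c2, Ccr2, Vcan, Plac8 and F13a1. Most macrophage-gated cells came from libraries 1, 3 and 4, and most classical monocytes from libraries 2, 5 and 6. Pooled levels therefore weigh the libraries differently in macrophages and monocytes. By the same rule 7 of the 10 genes were higher in macrophages, beside 11.3% of all 8429 genes compared, and 0 were lower, beside 7.75%. Pltp differed most (33.5-fold, 586 and 17.5 CPM), followed by Apoe (10.0-fold, 4091 and 408.6 CPM), Abca1 (5.23-fold), Gpnmb (5.21-fold), Lpl (4.47-fold), Abcg1 (2.78-fold) and Pparg (2.13-fold). Each was higher in 6 of 6 libraries, but the Gpnmb ranges (16.9 to 294 CPM in macrophages, 1.71 to 16.6 CPM in monocytes) nearly touched, and without library 2 its log2 ratio was 1.61 in place of 2.28. Fabp5 (333 and 216 CPM), Plin2 (502 and 385 CPM) and Fabp4 (12.3 and 4.06 CPM) did not meet the rule. The median log2 ratio was 1.80 for the 10 genes and 0.02 for all genes compared. The 10 genes were chosen as genes that macrophages are known to use, so these values are not independent of that choice.

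The monocytes were cycling more than the macrophages by their markers, with 4 cycling markers summing to 706 CPM (library range 370.2 to 805) against 53.8 CPM (30.9 to 122). Without cells that showed at least 2 of these markers, the log2 ratio of Apoe was 2.57 in place of 3.32 and that of Pltp 4.295 in place of 4.99. Pparg and Gpnmb then no longer met the rule. Both were also lost with clusters in place of gates, with the mean of single cells and with the neutrophil-marker cells added. Gpnmb was lost with 1 more marker asked for, and Pparg by library medians. At 3-fold Pparg and Abcg1 (2.78-fold) were lost. In classical monocytes 12.2% of cells held an Apoe entry stored as 0, against 4.09% of all macrophages, and the part of this in the Apoe difference was not tested.

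Other genes of the pathway were taken from 10 lists of 79 genes, of which 77 were in the table. Between resident and inflammatory macrophages 54 could be compared, 7 were higher in resident cells and 4 were lower, beside 10.3% and 3.79% of all genes, so that these counts are not read as a result about the lists. The 7 were the fatty acid and lipoprotein scavenger Cd36 (882 and 306 CPM), the tetraspanin Cd9 (867 and 243 CPM), Fabp3, the ubiquitin ligase Mylip (129 and 43.4 CPM), the sphingomyelinase Smpd1 and the sterol synthesis genes Idi1 and Sqle. Among the 4 were the cytokine-like Spp1 (158 and 1790.0 CPM), the lectin Lgals3 (1188.5 and 2723 CPM) and the lipase inhibitor Hilpda (23.9 and 110.4 CPM). The lists of fatty acid oxidation and droplet lipolysis had no member past the rule, among 8 and 4 compared, too few to set against those shares. Of the most abundant list genes, the lysosomal cofactor precursor Psap (1439.6 and 2524 CPM), the cholesterol carrier Npc2 (769 and 1207 CPM) and the scavenger receptor Msr1 (171 and 323 CPM) were lower in resident cells in 6 of 6 libraries but under 2-fold, and the endocytic receptor Lrp1 stood at 547 and 528 CPM. The list of lipid-associated macrophage genes was split, with Cd9 higher and Spp1 and Lgals3 lower in resident cells, while Cd63 (735 and 430.0 CPM) and Trem2 (430.1 and 251 CPM) did not pass.

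Against classical monocytes 57 list genes could be compared, 13 were higher in macrophages and 5 were lower, beside 11.3% and 7.75% of all genes. Among the 13 were Cd36, Stab1, Lrp1, Lipa, Npc1, Pla2g15, Nr1h3, Mylip, Fabp3, Trem2, Cd9 and Cd63. Cd63 (547 and 15.4 CPM), Cd36 (528 and 22.8 CPM), the scavenger receptor Stab1 (193 and 9.10 CPM) and Nr1h3, the sterol receptor that drives Abca1 and Abcg1 (22.1 and 2.65 CPM), differed most. Of 8 lysosomal lipid genes 4 were higher, among them the acid lipase Lipa (110 and 53.5 CPM) and the cholesterol transporter Npc1 (111 and 40.6 CPM). The 5 lower genes were the synthesis genes Cyp51, Fasn and Idi1, the lipase Lipc and the scavenger receptor Scarb1 (32.0 and 73.7 CPM). List genes were not compared again without cycling cells. Genes of these counts that the naming rule did not pick were named after their values were seen.

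Some genes had a pattern of levels close to that of a member. This was measured by Pearson's r of log2(CPM + 1) over 16 classes that share libraries and depth. A high r need not mean the same order of classes: the 3 genes closest to Abca1 were highest in resident macrophages, and Abca1 in inflammatory macrophages. The closest to Pltp were Arhgap22, Tppp3 and Lgmn (r = 0.95 for each), and to Lpl Itgb5, Fn1 and Lrp1 (0.95 to 0.96). Plin2 was closest to Adgre1, Lrrc25 and Tlr8 (0.94 to 0.95), Apoe to Fhod1, St3gal1 and Fam214b (0.91 to 0.94) and Abca1 to Ly96, Atp6ap1 and Bri3 (0.92 to 0.93). Gpnmb was closest to Cfb, Fbxw17 and Pdpn (0.91 to 0.94), Abcg1 to Senp2, Clk3 and Mnt (0.89 to 0.90) and Fabp5 to Dcstamp, Vdr and Tnip3 (0.87 to 0.89). Pparg was closest to Trps1, Tmem51 and Cept1 (0.86 to 0.88) and Fabp4 to Flt1, D17Wsu92e and Smpdl3b (0.84 to 0.85), genes highest in nonclassical monocytes. No member was among the 3 closest of another member, which with only 3 places each says little about whether the members vary together. Between members r ran from 0.07 (Abcg1 with Gpnmb) to 0.86 (Pltp with Abca1). The r of other gene pairs was not set beside these values.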

How the data were processed

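CD45+ cells sorted from digested synovium of 6 samples (2 PBS, 4 PEPITEM) were profiled with 10x Chromium 3′ chemistry. Per the study's methods, the authors aligned reads to mm10 with Cell Ranger 7, removed ambient RNA with SoupX and doublets with DoubletFinder, and filtered cells by gene number and mitochondrial share with Seurat. The authors deposited a pooled matrix of whole-number UMI counts after these steps, without cell types. It stores 1724738 entries as 0. No further doublet caller was run, and cells passing 2 gates were left out of the classes.

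Cells were gated on marker genes (Python 3.11.15, scipy 1.17.1, pandas 2.3.3). The macrophage gate needed 3 of its 7 markers and 10 marker UMIs per 10000, a macrophage subclass 2 of its markers, and 83 of 3497 macrophage-gated cells lay within 20% of the cut. The cuts were set after marker values were seen, and the members and lists were chosen with earlier results of these data known. Levels are UMIs per 1000000 UMIs (CPM) of a class's summed UMIs, pooled and per barcode library with at least 10 cells, and intervals are exact (Poisson for levels, Clopper-Pearson for shares) at 95%. Intervals cover counting error only. Shares were repeated with each cell thinned to 3000 UMIs, which left out 1516 shallower cells. The counting rule (2-fold, library ranges apart, at least 10 CPM) was run on simulated counts with known changes. These held counting error but no other difference between libraries, so they cannot show how the rule behaves under the real library spread. Alternatives were Leiden clusters (scanpy 1.11.5), 1 more marker, library medians, single-cell means, other folds, leaving out each library and, chosen after seeing the data, cells with neutrophil markers added, shared barcodes or cycling cells left out. All members were named, up to 4 genes per list with the highest macrophage level, and the 3 closest genes per member. Promoters are from RefSeq on GRCm38.p6. Single results of some list genes are not reported here.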

Additional observations from a re-analysis of the deposited data

Results flagged for a closer look

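A set of 1986 cells passed both the macrophage and the neutrophil gate. It was in no class of the report, entered its comparisons only as an alternative, and held 41.5% of all Apoe UMIs in the matrix and 11.05% of all UMIs. Its pooled levels are given for all 10 genes because the set lay outside the classes. They were 4252 CPM for Apoe, 326 CPM for Pltp, 140 CPM for Lpl, 7.55 CPM for Fabp4 and 308 CPM for Fabp5. Plin2 stood at 501 CPM, Abca1 at 468 CPM, Abcg1 at 97.4 CPM, Pparg at 34.9 CPM and Gpnmb at 43.8 CPM. In the same cells neutrophil markers summed to 95008 CPM (58802 to 135960 over the libraries), and the median depth was 24372 UMIs per cell, beside 14449 in macrophages and 7672 in neutrophils. The part of the neutrophil RNA in these levels was not tested.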

How the results depend on the processing

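Counts of genes past the rule moved in 3 cases. At 3-fold, 0 genes in place of 1 were higher in resident than in inflammatory macrophages and 2 in place of 4 were lower (Fabp5 and Plin2), and the latter was also 2 with the cells that carried neutrophil markers added. Leaving out each library in turn gave 1 gene higher and 3 to 5 lower (3 without library 1, 5 without library 3), and 7 higher in macrophages than in monocytes each time, and 5 to 6 genes highest in a macrophage class (5 without library 2). The rest of the counts stayed within 1.5 times, with 5 to 7 of the 10 genes higher in macrophages than in monocytes. Of the single-gene log2 ratios under the alternatives, 239 moved by at most 1.5 times on the linear scale, 11 moved further or changed sign and 0 of those past the rule changed sign, while the Abca1 ratio of resident over inflammatory, which did not pass, was 0.07 with clusters and -0.23 with gates. Of the single-gene levels in both macrophage classes, 65 stayed within the counting interval and 155 moved outside it. Without the filter on low genes the background was 6.94% higher and 2.09% lower in resident cells. The clustering had no cluster for the Fxyd2 and Aqp1 or the other macrophages. Library 2 decided the Gpnmb and Fabp4 levels in inflammatory cells (53.8 CPM and 12.9 CPM without it, 86.7 and 20.2 CPM with it). The causes of these shifts were not tested. The classes compared came from the same 6 barcode libraries, and the counting rule did not use this pairing. No paired test was run, but ratios within each barcode library are given in the report. Levels of a few CPM in classes of about 100 cells rest on few UMIs, so a gene at 0 there was not detectable at this depth rather than absent.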

Other observations

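Stem and progenitor cells, marked by Meis1, Mecom, Angpt1 and Cd34, held Apoe at 602 CPM with 62.7% of 335 cells positive (57.3% to 67.9%), while C1qa stood at 0.30 CPM there. C1qa is a marker of the macrophage gate, and cells that passed that gate as well were left out of this class. The gate therefore sets part of the low C1qa value. Genes of droplet storage and breakdown outside the 10 were led by other cells than macrophages: Dgat1, which makes triglyceride, stood at 1047 CPM in neutrophils and 77.5 CPM in inflammatory macrophages, and G0s2, an inhibitor of the main triglyceride lipase, at 2209 and 73.8 CPM. Hilpda stood at 844 CPM in innate lymphoid cells, the class next to nonclassical monocytes in Pparg, and the desaturase Scd1 at 181 CPM in B cells, against at most 2.35 CPM in a macrophage class. Apoe was the gene with rank 11 of all genes by the number of entries stored as 0, with 3776 such cells, or 27.95% of its entries.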
